A study of Mus musculus with 16 samples.

Results

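Deletion of Pdha1 was examined in memory-like CD8+ T cells (TM), using the 8 of the 16 RNA sequencing libraries that were made from cultures with IL-15. The labels place 4 libraries in the group PDH_MEMORY, written here as TPdh-/-, and 4 in WT_MEMORY, written as WT, and every library with either label was used. Per the study, the TM cultures started from T cells of the spleen. Its methods name OT-I cells, which carry 1 transgenic T cell receptor for an ovalbumin peptide. They also name isolation kits for pan T, CD8+ and CD4+ cells, but tie none of them to these cultures. No cross of TPdh-/- mice with OT-I mice is described. The study's experiments used male and female mice of 8 to 12 weeks. The cells of both genotypes were stimulated with the peptide for 3 days and then kept in IL-15 for 4 days. TPdh-/- mice came from a cross of B6.129P2-Pdha1tm1ptl/J, in which an exon of Pdha1 is flanked by loxP sites, with the CD4-cre line B6.Cg-Tg(Cd4-cre)1Cwi/BfluJ. This Cre is driven by Cd4 promoter elements that are active in thymocytes before the CD8 lineage separates, so that the deletion precedes activation and culture. Pdha1 lies on the X chromosome and the labels give neither the sex of the donors nor whether each library came from its own mouse. The study counts its RNA sequencing replicates in mice, with more mice a condition than there are libraries a group here, and no source used here ties a library to a mouse. Ddx3y, a Y-linked gene, was read at 184 to 212 CPM (each gene's count relative to the scaled library total) in all 8 libraries and Xist, the RNA of the inactive X chromosome, at 0.0158 to 0.214 CPM. Both are as in cells of male mice, so these readings go against female donors in these 8 libraries. All p-values measure the spread between libraries, which may be technical.

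Pyruvate dehydrogenase complex (PDC) is the mitochondrial enzyme assembly that turns pyruvate, the end product of glycolysis, into acetyl-CoA. Its E1 component decarboxylates pyruvate, E2 passes the acetyl group to coenzyme A and E3 regenerates the lipoyl cofactor, while dedicated kinases and phosphatases switch E1 off and on. Pdha1 encodes the E1 alpha subunit. IL-15 is the cytokine on which memory CD8+ T cells and NK cells depend, and CD8+ T cells kept in it after activation take up a memory-like state with less effector function than cells kept in IL-2.

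The libraries held 53007257 to 65142856 counts each. The groups parted along the first principal component, which held 53.8% of the variance. WT library 12 stood apart from the other WT libraries. Its chi-square per degree of freedom against WT libraries 9, 10 and 11 was 56.7 to 74.4, against 9.55 to 16.7 among those 3 libraries, and its reads came on average from longer transcripts (1571 bases, against 1409 to 1471 bases in the other 7). The estimated fragment length also differed between the groups, with 296 to 306 bases in WT and 308 to 326 bases in TPdh-/-. The part of fragment length in the results was not tested, and the groups do not overlap in it. The markers of CD8 T cells were abundant in every library (summed TPM 6404 to 7976). In what follows, values in CPM are given in library order, 9 to 12 for WT and 13 to 16 for TPdh-/-, and log2 differences are TPdh-/- minus WT with the standard error (SE) of the difference between libraries. A gene was called when the adjusted p of edgeR's quasi-likelihood test was below 0.05 over the 14332 genes tested.

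Pdha1 (X:160122209-160138413, minus strand, GRCm38) was read at 172, 172, 182 and 197 CPM in WT and at 144, 154, 162 and 162 CPM in TPdh-/-. Every TPdh-/- library lay below every WT library, but by a small amount, with a log2 difference of -0.22 (SE 0.059, adjusted p = 0.0359). The call was lost without WT library 9 or 11 or without any single TPdh-/- library (log2 -0.242 to -0.185, adjusted p 0.0518 to 0.093). The floxed allele is known to remove exon 8, which is 1 of 11 in this transcript, so the rest of the transcript can still be counted, and a count per gene does not show whether that exon was read. The exon (X:160127291-160127362, minus strand, 72 bases) is shown in capitals within transcript Pdha1-201 of GENCODE M21, with 15 bases of the neighbouring exons on each side, because it is the whole of the sequence that the deletion takes from the 2848 bases of the messenger RNA.

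Pdha1 exon 8: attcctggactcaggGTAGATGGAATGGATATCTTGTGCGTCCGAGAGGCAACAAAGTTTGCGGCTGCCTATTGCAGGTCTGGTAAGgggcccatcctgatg

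RSEM also estimated the mean length of the Pdha1 transcripts in each library, weighted by their abundance. It averaged 2667 bases in WT and 2655 bases in TPdh-/- (limma, log2 difference -0.00697, SE 0.0129, adjusted p = 0.97). The loss of exon 8 cannot appear in this estimate unless an annotated transcript lacks the exon. Pdha1 shares exon positions with its neighbour Map3k15, and the library kit does not keep the strand, so reads at the shared positions cannot be assigned to either gene with certainty. Map3k15, a kinase of the MAP kinase cascades, was called higher (log2 0.49, SE 0.074, adjusted p = 0.00728).

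Over all genes, 2025 of 14332 (14.1%) were called, 1358 (9.48%) higher and 667 (4.65%) lower in TPdh-/-. The number lower was 384, 435 and 408 without WT library 9, TPdh-/- library 14 and TPdh-/- library 16. The differences in the upward direction were larger. Of the called genes 584 were over 2-fold higher (4.07% of those tested) and 69 over 2-fold lower (0.481%), 653 in all (4.56%), and with a log2 limit of 2 the numbers were 247 (1.72%) and 9 (0.0628%). The median log2 difference over all tested genes was -0.0063, so the scaling left the bulk of genes level. In 3017 of the 14332 tested genes (21.1%) the groups of libraries did not overlap. All TPdh-/- libraries lay above all WT libraries in 12.1% of tested genes and below them in 8.92%, which is the background for each gene without overlap named below. The asymmetry lay among genes at low levels. Among genes with a mean below 1 CPM, 329 were higher and 66 lower, and between 1 and 10 CPM 495 were higher and 126 lower. Between 10 and 100 CPM the numbers were 398 and 343, and above 100 CPM 136 and 132, with medians of 0.336 among the genes higher and -0.312 among those lower. A gene that is near 0 in WT enters the test only if it is high enough in TPdh-/-, so counts over weakly expressed gene families below describe the genes that passed the filter and are not evidence about the families.

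**Figure D1:**
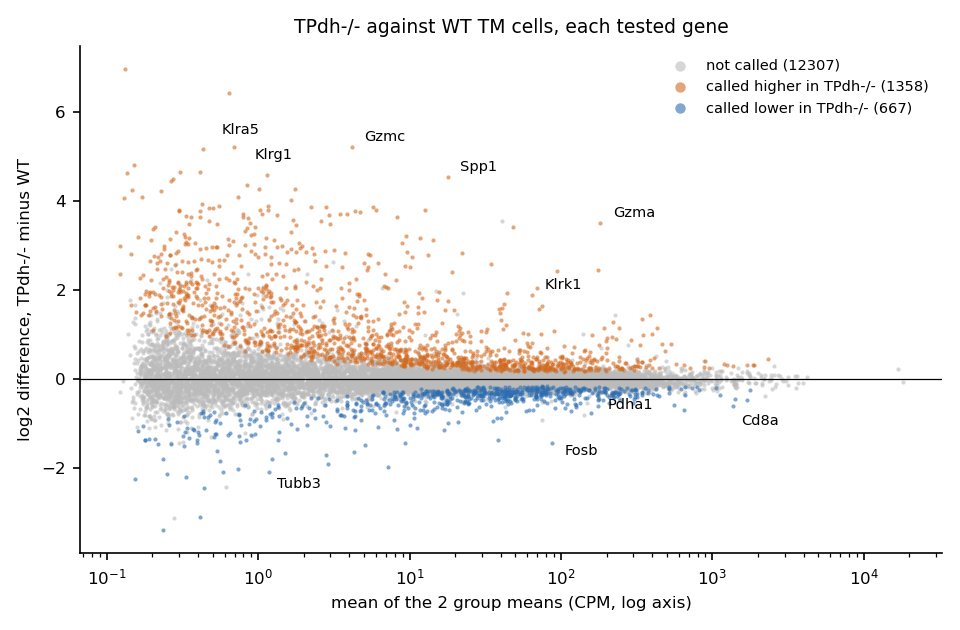
Log2 difference (TPdh-/- minus WT, vertical axis) against the mean of the group means in CPM (horizontal log axis) for the 14332 tested genes, 1 point per gene, with called genes in colour. The 1358 genes called higher reach far larger differences than the 667 called lower, mostly at low levels, while Pdha1 at -0.22 and Cd8a at -0.62 lie near the bulk of genes.

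The gene lists described next hold 634 symbols in 32 lists, of which 575 genes passed the filter on low counts. The counts of members are set beside the 9.48% of all tested genes called higher and the 4.65% called lower.

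**Figure D2:**
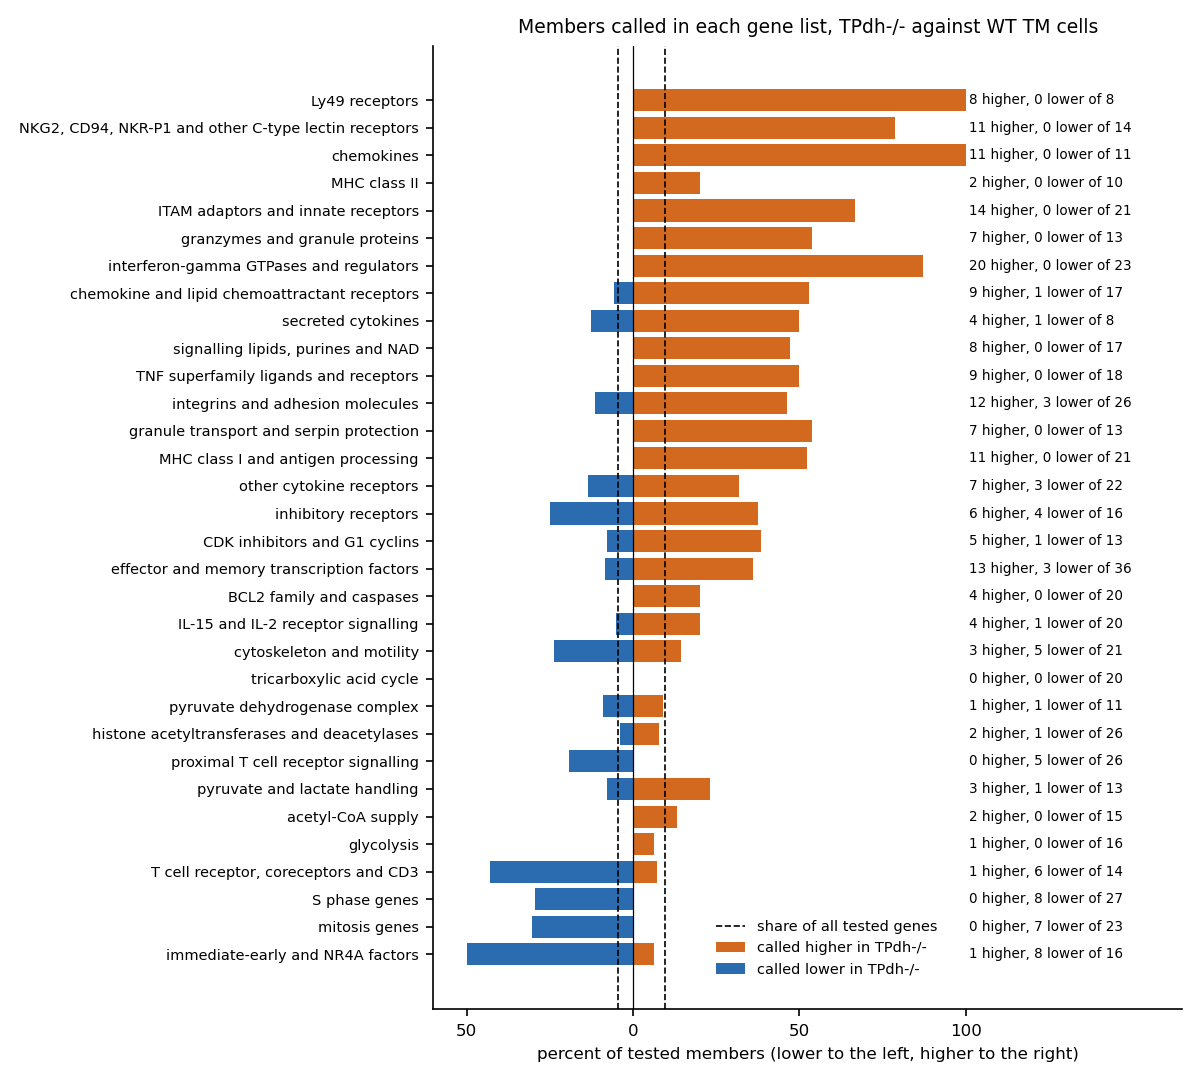
Percent of the tested members of each of the 32 gene lists that were called higher (to the right) and lower (to the left) in TPdh-/- against WT, ordered by the median log2 difference of the members, with dashed lines at the shares over all tested genes (9.48% higher and 4.65% lower). The lectin receptor and chemokine lists stand at the top, and the immediate-early, mitosis, S phase and T cell receptor lists at the bottom. Below the chemokines follow MHC class II (2 of 10 tested called higher), the ITAM adaptors, the granzymes and the interferon-gamma list.

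Of 13 tested granzyme and granule protein genes, which make up the killing machinery, 7 were called higher and 0 lower in TPdh-/- TM cells, with a median log2 difference of 1.03. NK and gamma-delta T cells carry the same machinery, and the summed TPM of their markers was 2.36-fold and 3.37-fold higher in the same libraries. In CPM these sums were 1.71-fold and 2.11-fold higher. The part of such cells in these results was not tested. Gzmd, Gzme, Gzmf and Gzmg did not pass the filter. Gzma, a granule serine protease, was read at 26.2, 12.3, 51.7 and 28.6 CPM in WT and at 202, 206, 404 and 527 CPM in TPdh-/-. The lowest TPdh-/- library was well above the highest WT library. The log2 difference was 3.49 (SE 0.55, adjusted p = 0.0052), an 11.3-fold ratio of the means. Gzmc, a granzyme of late cytotoxic cells, was near 0 in WT (0.174, 0.151, 0.261 and 0.288 CPM) and stood at 3.04, 3.1, 5.56 and 20.7 CPM in TPdh-/-. Its log2 difference of 5.19 (SE 0.67, adjusted p = 0.00808) is widened by library 16. Gzmk, a granzyme of memory cells, rose by 2.80 (SE 0.42, adjusted p = 0.00105).

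Perforin (Prf1), which opens the target membrane to granzymes, was read at 14.1, 12.4, 13.5 and 18.1 CPM in WT and at 27.8, 25.5, 29.7 and 35.8 CPM in TPdh-/-. The groups did not overlap, and the log2 difference was 1.03 (SE 0.16, adjusted p = 0.00034). Fas ligand (Fasl), the death ligand of the same cells, was read at 8.79, 8.74, 12 and 10.8 CPM in WT and at 24.4, 24.7, 36.9 and 31 CPM in TPdh-/-. Again every TPdh-/- library was higher (log2 1.53, SE 0.18, adjusted p = 8.46e-05). Gzmb, the best known granzyme of activated cells, did not pass the test in these 8 libraries. Its values of 105, 60.1, 150 and 176 CPM in WT and of 182, 238, 387 and 528 CPM in TPdh-/- did not overlap, but they spread widely within each group (log2 1.44, SE 0.49, adjusted p = 0.0755). It was called by DESeq2 (adjusted p = 0.0125) and when all 16 libraries shared the estimate of the spread (adjusted p = 0.0123). Gzmm was called (log2 1.35, SE 0.32, adjusted p = 0.0102), but not without WT library 12 (adjusted p = 0.0571). The highly expressed granule genes Nkg7 and Ctsw showed log2 differences of 0.06 and 0.01.

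Several serpin genes moved in the same direction, while the serpin gene Serpinb1a was not called (log2 0.002). Serpinb9, the inhibitor of granzyme B, was read at 26.7, 23.5, 29.1 and 26.6 CPM in WT and at 49.6, 54, 68.9 and 70.4 CPM in TPdh-/-. The groups did not overlap (log2 1.20, SE 0.14, adjusted p = 6.53e-05). Serpina3f, a serpin of the antichymotrypsin family, rose 13-fold from a mean of 0.547 to 7.17 CPM (log2 3.70, SE 0.2, adjusted p = 2.16e-06). Serpina3g, Serpinb6a, Serpinb6b and the granule fusion protein Stx11 were also called higher, with log2 differences of 0.51 to 1.92. In the list of granule transport and serpin genes 7 of 13 tested members were called higher and 0 lower, and Serpinb9b and Vamp7 did not pass the filter. The transport genes Lyst, Unc13d and Rab27a were not called (log2 -0.27 to 0.16).

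**Figure D3:**
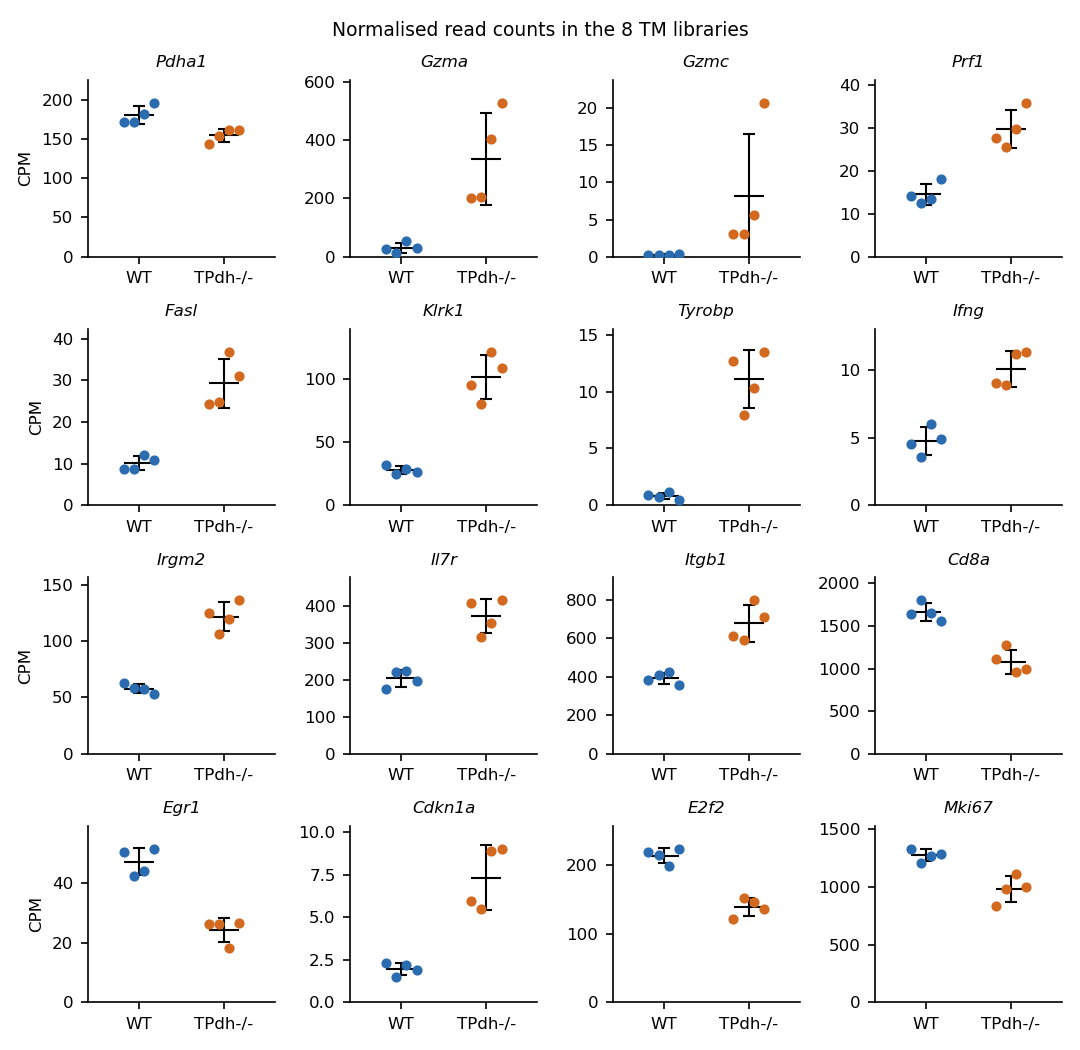
Normalised read counts (CPM, linear axes from 0) of 16 genes in the 4 WT and 4 TPdh-/- libraries, 1 point per library, with the mean as a horizontal line and the standard deviation as bars. In each panel the groups do not overlap, and Gzmc shows 1 TPdh-/- library (20.7 CPM) far above the other 3. Over all tested genes the groups did not overlap in 21.1%.

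Lectin-like receptors of NK cells were mostly at low levels in WT, and many of those that passed the filter were higher in TPdh-/-. Ly49 receptors (Klra genes) bind MHC class I and mostly inhibit NK cells, while NKG2 and CD94 chains pair into receptors for non-classical MHC molecules. Of 12 listed Ly49 genes 8 passed the filter, and all 8 were called higher with log2 differences of 1.76 to 5.21. Their WT levels were very low. Klra5 was read at 0.0317, 0.0378, 0.0174 and 0.0508 CPM in WT, which is 8 counts over 4 libraries, and at 1.14, 1.05, 1.39 and 1.81 CPM in TPdh-/-. Klra7 was read at 0.254, 0.359, 0.922 and 0.457 CPM in WT and at 6.97, 4.88, 5.59 and 8.34 CPM in TPdh-/-. Both genes were far apart between the groups and at a low level in TPdh-/- too. Klra3, Klra4, Klra8 and Klra9 rose by 1.76, 3.88, 3.56 and 3.78, the last from 9 counts over the WT libraries, and Klra2, Klra6, Klra10 and Klra17 did not pass the filter. Since Ly49 genes are near copies of each other, reads could be split between them with error.

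Klrk1, which encodes the activating receptor NKG2D, stood at a higher level than the Ly49 genes. It was read at 31.7, 24.3, 28.2 and 26.1 CPM in WT and at 95.3, 80.3, 121 and 108 CPM in TPdh-/-. The groups were far apart (log2 1.88, SE 0.15, adjusted p = 8.87e-06, a 3.67-fold ratio). Klrg1, a receptor of terminal effector cells, was read at 0.0792, 0.0755, 0.104 and 0.102 CPM in WT and at 2.11, 1.14, 2.05 and 3.48 CPM in TPdh-/- (log2 4.57, SE 0.33, adjusted p = 2.09e-05). Its level in TPdh-/- was low even so. Klrc2, an activating NKG2 chain, Klrb1c, which encodes the NK1.1 antigen, and Klrb1f, Klre1 and Klri2 rose by 2.05 to 3.85. Klrd1, the shared CD94 chain, was already at 78.1 to 117 CPM in WT and was not called (log2 0.41, SE 0.16, adjusted p = 0.0605), nor were Clec2i and Clec2d, ligands of the NKR-P1 receptors. In the list 11 of 14 tested members were higher and 0 lower, and Klrh1 and Klri1 were not tested.

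These receptor genes lie together on chromosome 6. Between the outermost tested genes of the Klra, Klrb, Klrc, Klrd, Klre, Klri and Klrk families (6:128609227-130386874), 32 genes were tested, 23 were called higher (71.9%) and 0 lower. On the rest of chromosome 6, 95 of 706 tested genes were higher (13.5%). Genes of this region overlap with the lists above, so that the position is a second description of the same genes.

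The adaptors through which such receptors signal, and other innate receptors, were also higher. Of 21 tested genes of immunoreceptor (ITAM) adaptors and innate receptors 14 were called higher and 0 lower, with a median log2 difference of 1.31. Tyrobp encodes DAP12, the adaptor of activating Ly49 and NKG2C receptors, and was read at 0.856, 0.717, 1.17 and 0.491 CPM in WT and at 12.7, 7.93, 10.3 and 13.5 CPM in TPdh-/-. Fcer1g, the adaptor of Fc receptors and NKp46, was read at 0.681, 0.321, 0.522 and 0.423 CPM in WT and at 6.32, 4.28, 5.64 and 5.77 CPM in TPdh-/-. Both genes rose more than 10-fold without overlap (log2 3.78, SE 0.3 and log2 3.48, SE 0.25). Ncr1, which encodes NKp46, rose by 3.78 (SE 0.24, adjusted p = 2.83e-06), and Cd244a, the SLAM family receptor 2B4, by 2.59 (SE 0.18, adjusted p = 5.35e-06). The inhibitory receptor Lilrb4a was read at 21.9 to 26.3 CPM in WT and at 49.7 to 64 CPM in TPdh-/- (log2 1.31, SE 0.1). Sh2d1b1, an adaptor of SLAM receptors in NK cells, was higher from 17 counts in the WT group. Treml2, Slamf6 and Sh2d2a, which are expressed at over 100 CPM, showed log2 differences of -0.17 to 0.11 and were not called, and Sh2d1b2, Trem1 and Trem2 were not tested.

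Markers of NK and gamma-delta T cells moved with these genes. The summed level of 9 NK cell markers was 25.2 to 37.5 TPM in WT and 56.4 to 77.1 TPM in TPdh-/-, and 8 of the 9 were called higher, none of them at a mean above 10.6 TPM in TPdh-/-. The exception was Eomes, which made up most of the sum in WT. The list shares members with the receptor lists above. The summed level of 8 gamma-delta T cell markers was 57 to 67.3 TPM in WT and 179 to 240 TPM in TPdh-/-, and all 8 were called higher. Trdc, the constant segment of the delta chain, was read at 159, 138, 143 and 126 CPM in WT and at 248, 246, 265 and 262 CPM in TPdh-/- (log2 0.85, SE 0.075). Tcrg-C4, a gamma chain constant segment, was read at 2.47, 1.28, 1.51 and 1.46 CPM in WT and at 23.9, 19.7, 26.6 and 24.2 CPM in TPdh-/- (log2 3.80, SE 0.22). Neither sum overlapped between the groups. Transcripts of these genes can come from CD8+ T cells or from a few cells of another kind. In RNA from whole cultures, more cells of a type and more RNA per cell cannot be told apart. On the CPM scale the NK sum was 1.71-fold and the gamma-delta sum 2.11-fold higher, against 2.36-fold and 3.37-fold in TPM. The part of other cells in the killing, receptor and adaptor results was not tested.

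Of 13 listed chemokine genes 11 passed the filter, most of them at low WT levels, and these 11 were called higher (median log2 2.31), while 4 were tested and called with a filter of 1 CPM in 4 libraries. Ccl17 and Cxcl11 did not pass the main filter. Ccl4, an inflammatory chemokine, was read at 0.444, 0.359, 0.365 and 0.22 CPM in WT and at 2.13, 2.09, 2.35 and 1.76 CPM in TPdh-/-. Ccl3, a closely related chemokine, was read at 0.206, 0.245, 0.139 and 0.135 CPM in WT and at 2.02, 1.36, 1.62 and 0.815 CPM in TPdh-/-. The groups did not overlap in either gene. The chemokines at the highest levels, Xcl1 and Ccl5, were picked after their values were seen. Xcl1, which attracts cross-presenting dendritic cells, was read at 8.84, 5.44, 7.6 and 3.81 CPM in WT and at 28.1, 22.6, 31.2 and 17.6 CPM in TPdh-/- (log2 1.95, SE 0.33, adjusted p = 0.00136). Ccl5 rose by 1.12 (SE 0.27, adjusted p = 0.0118). Cxcl9 and Ccl1 held 5 counts each over the 4 WT libraries against 197 and 138 in TPdh-/-, and Ccl9 held 16 against 148. Cxcl16, a membrane-bound chemokine, rose by 1.46 (SE 0.15) from below 0.4 CPM.

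Among the chemokine receptors 9 of 17 tested genes were higher and 1 lower. Cxcr6, the receptor of Cxcl16, was read at 140, 160, 177 and 117 CPM in WT and at 230, 260, 304 and 340 CPM in TPdh-/-. It was higher without overlap (log2 0.93, SE 0.18). Cxcr4 (log2 0.47), Gpr183 (log2 0.66), Ccrl2 (log2 2.18), Ccr1 (log2 2.61) and Xcr1 (log2 0.84) were also called higher, of which Xcr1 lost its call without WT library 10, 11 or 12 or TPdh-/- library 15 or 16 (adjusted p 0.052 to 0.0755). Ccr4, a receptor of skin-homing cells, was lower (log2 -0.71, SE 0.22, adjusted p = 0.0179), but not called without WT library 12 (adjusted p = 0.0578) or TPdh-/- library 15 (adjusted p = 0.0528). The lymph node homing receptor Ccr7 was read at 167, 176, 180 and 169 CPM in WT and at 209, 204, 175 and 197 CPM in TPdh-/-. Its groups overlapped and it was not called (log2 0.18, SE 0.063, adjusted p = 0.0773), except without TPdh-/- library 15 (adjusted p = 0.0204). S1pr1 and Cxcr3, which guide exit from lymph nodes and entry into inflamed sites, were not called (log2 -0.15 and 0.18), and Ackr2, Ccr8, Ccr10, Ltb4r1, Ptgdr2 and S1pr5 did not pass the filter.

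Secreted cytokines were mostly too low to test, with 12 of 20 listed genes (Areg, Il2, Il3, Il4, Il5, Il6, Il10, Il13, Il17a, Il21, Il22 and Il24) not passing the filter. Of the 8 tested, 4 were higher and 1 lower. Ifng, the main cytokine of killer cells, was read at 4.52, 3.57, 6.02 and 4.92 CPM in WT and at 9.05, 8.87, 11.2 and 11.4 CPM in TPdh-/-. The groups did not overlap, and the log2 difference was 1.09 (SE 0.18, adjusted p = 0.000624). Tnf, another inflammatory cytokine of these cells, went the other way, with 29.9, 28.1, 26.5 and 32.6 CPM in WT and 22.1, 23.8, 20.4 and 20.7 CPM in TPdh-/-. Every TPdh-/- library was lower (log2 -0.43, SE 0.082, adjusted p = 0.00362). Lif, a cytokine of the IL-6 family, rose from 1.4 to 3.76 CPM in WT to 8.92 to 12.1 CPM in TPdh-/- (log2 2.09, SE 0.31, adjusted p = 0.000237). Csf2 and Csf1, growth factors of myeloid cells, rose by 2.62 and 2.38 from means below 0.2 CPM. Spp1, which encodes the secreted matrix protein osteopontin, was read at 1.08, 1.21, 1.67 and 1.96 CPM in WT and at 30.4, 27.4, 30.7 and 48.8 CPM in TPdh-/- (log2 4.53, SE 0.27, adjusted p = 5.35e-06, a 23.2-fold ratio). Ltb, Tgfb1 and Lta were not called (log2 -0.27 to 0.16).

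Of 18 tested TNF superfamily genes 9 were higher and 0 lower. Tnfrsf9 encodes 4-1BB, a costimulatory receptor, and was read at 4.93, 5.21, 5.69 and 5.72 CPM in WT and at 17.1, 15.4, 21.3 and 21.6 CPM in TPdh-/- (log2 1.81, SE 0.13, adjusted p = 6.22e-06). The death ligand TRAIL (Tnfsf10) was read at 84.7, 81.2, 84.2 and 77.5 CPM in WT and at 111, 108, 119 and 121 CPM in TPdh-/- (log2 0.49, SE 0.05). Fas, the receptor of Fasl, rose by 0.35 (SE 0.04) and Tnfsf8 by 0.45 (SE 0.044). Tnfsf4, the OX40 ligand, and Tnfsf13b, the B cell survival factor BAFF, were below 1 CPM in WT and rose by 2.96 and 1.80. Cd27, Tnfrsf26 and Tnfrsf1b were not called (log2 -0.16 to 0.16), and Cd70 and Tnfrsf8 were not tested.

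Most tested genes of the IL-15 receptor and its signalling chain were not called. The shared beta chain Il2rb was read at 813, 779, 764 and 987 CPM in WT and at 875, 893, 964 and 1004 CPM in TPdh-/-. The groups overlapped through WT library 12 (log2 0.16, SE 0.097, adjusted p = 0.253), and without that library Il2rb was called (log2 0.249, adjusted p = 0.0232). Il15ra, the private chain that presents IL-15, was higher by 0.30 (SE 0.072, adjusted p = 0.0206), a call that was lost without WT library 11 or TPdh-/- library 13 (adjusted p 0.0509 and 0.0506). Il2ra, the high-affinity IL-2 chain, was read at 79, 89.6, 103 and 98.1 CPM in WT and at 121, 166, 136 and 183 CPM in TPdh-/-. All 4 TPdh-/- libraries were higher (log2 0.71, SE 0.16, adjusted p = 0.00375). Pim1, a kinase induced by STAT5, was read at 341, 349, 333 and 376 CPM in WT and at 495, 482, 469 and 472 CPM in TPdh-/- (log2 0.46, SE 0.042, adjusted p = 0.000287). Ptpn6, the phosphatase SHP-1 that restrains cytokine and antigen receptors, was lower, with 191, 171, 186 and 246 CPM in WT and 110, 123, 116 and 119 CPM in TPdh-/- (log2 -0.76, SE 0.12, adjusted p = 0.000443). Of 20 tested members 4 were called higher and 1 lower, beside 9.48% and 4.65% of all genes. Il15 itself was called higher (log2 2.07, SE 0.28) but was read below 0.5 CPM in every library. Jak1 and Bcl2 were not called (log2 0.06 and 0.03).

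Other cytokine receptors were mixed, with 7 of 22 tested higher and 3 lower. Il7r, the receptor of the memory survival cytokine IL-7, was read at 174, 220, 224 and 197 CPM in WT and at 406, 316, 354 and 414 CPM in TPdh-/-. The groups did not overlap (log2 0.87, SE 0.12, adjusted p = 0.000207), although with all 16 libraries in the fit the adjusted p was 0.0501. Il12rb1 (log2 0.85), Il18r1 (log2 0.40) and Ifngr2 (log2 0.44), receptor chains for inflammatory cytokines, were higher, and Csf2rb (log2 2.04) was higher from below 1 CPM. Csf1r, the receptor that defines macrophages, was read at 0.122 to 0.285 CPM in WT and at 1.38 to 1.87 CPM in TPdh-/-. Il6st, the gp130 chain, was lower (log2 -0.43, SE 0.12, adjusted p = 0.0164). Il21r and Ifnar2 were lower by 0.23 and 0.21, but the calls were lost without 5 and 7 of the 8 libraries in turn (WT 9 and each TPdh-/- library for Il21r, all but WT 12 for Ifnar2), with adjusted p 0.0502 to 0.0869 and 0.052 to 0.116. The number of genes called lower was then 1 without WT library 9 or without any single TPdh-/- library. Ifngr1, Il4ra and Ifnar1 were not called (log2 0.02 to 0.18), and Il1r1, Il1r2 and Il9r were not tested.

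Adhesion molecules were higher for 12 of 26 tested genes and lower for 3. Itgb1, the beta-1 integrin chain, was read at 382, 409, 423 and 357 CPM in WT and at 611, 594, 798 and 710 CPM in TPdh-/- (log2 0.79, SE 0.11, adjusted p = 0.000277). Itga6, an alpha chain that pairs with it, went the other way, with 76.1, 75.7, 69.9 and 83.3 CPM in WT and 48.2, 50.5, 41.4 and 46.9 CPM in TPdh-/- (log2 -0.71, SE 0.08, adjusted p = 9.32e-05). Neither gene showed overlap between the groups. Itgax encodes CD11c, an integrin of dendritic cells that activated CD8+ T cells also carry, and was read at 2.58, 1.72, 4 and 3.37 CPM in WT and at 18.9, 15.4, 25.5 and 42.1 CPM in TPdh-/- (log2 3.12, SE 0.41, adjusted p = 0.00126). Itgam (CD11b) rose by 2.08, and the tetraspanins Cd81, Cd9 and Cd63 rose by 1.56, 0.83 and 2.92. Itgb7 (log2 -0.23) and Cd48 (log2 -0.26) were called lower, the former not without TPdh-/- library 14 or 16 (adjusted p 0.0523 and 0.0532) and the latter not without any library other than WT 12 (adjusted p 0.0712 to 0.126). The number called lower was 1 without TPdh-/- library 14 or 16 and 2 without WT library 9, 10 or 11 or TPdh-/- library 13 or 15. Itga4 and Itgal were not called (log2 0.27 and 0.09), and Itgb8 was not tested.

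The transcription factors that set effector and memory fates did not move as a block. Of 36 tested 13 were higher and 3 lower, with a median log2 difference of 0.08. Zeb2, a repressor that drives terminal effector cells, was read at 1.28, 1.6, 1.7 and 1.61 CPM in WT and at 7.23, 5.71, 8.31 and 7.78 CPM in TPdh-/- (log2 2.23, SE 0.15, adjusted p = 5.65e-06). Rora, a nuclear receptor of innate-like lymphocytes, was read at 39.8, 42.3, 43.2 and 36.1 CPM in WT and at 82.9, 70.8, 81.9 and 85.7 CPM in TPdh-/- (log2 0.99, SE 0.084). Both factors were higher in every TPdh-/- library. Maf (log2 2.84), Irf8 (log2 1.10), Bhlhe40 (log2 0.57), Ikzf2 (log2 0.43) and Prdm1, which encodes Blimp-1 (log2 1.63), were higher as well. Batf3 was higher from below 0.4 CPM, and lost its call without WT library 9, 10 or 12 or TPdh-/- library 15 (adjusted p 0.0545 to 0.0737). Zbtb32, a factor of activated lymphocytes, was lower, with 6.51, 6.32, 7.72 and 9.38 CPM in WT and 2.13, 2.77, 2.81 and 2.93 CPM in TPdh-/- (log2 -1.49, SE 0.17, adjusted p = 7.72e-05). Id3, which keeps memory precursors, was lower by 0.83 (SE 0.14, adjusted p = 0.00167). Foxo1, which maintains Il7r in resting cells, was lower by 0.27 (SE 0.066, adjusted p = 0.0182), a call lost without WT library 9 or 10 (adjusted p 0.0546 and 0.0512).

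The factors most used to name effector and memory cells were not called. Tbx21 (T-bet) was read at 29.6, 26.4, 28.3 and 33.1 CPM in WT and at 23.2, 24.8, 29.5 and 29.5 CPM in TPdh-/- (log2 -0.13, SE 0.11, adjusted p = 0.394). Tcf7 (TCF-1) was read at 718, 726, 640 and 859 CPM in WT and at 682, 628, 595 and 696 CPM in TPdh-/- (log2 -0.18, SE 0.1, adjusted p = 0.217). Eomes was read at 68.4, 61.1, 68.3 and 81.6 CPM in WT and at 84.9, 72.6, 101 and 85.1 CPM in TPdh-/- (log2 0.30, SE 0.13, adjusted p = 0.0841). The groups overlapped in all 3 genes. Eomes passed the test without WT library 12 (log2 0.381, adjusted p = 0.0329) or without TPdh-/- library 14 (log2 0.375, adjusted p = 0.0409). Irf4, Gata3, Ikzf3 and Foxp1 were not called either (log2 -0.18 to 0.29), and Tox2 and Zbtb16 were not tested.

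Several immediate-early genes, a group that antigen receptor signals can induce, were lower. Of 16 tested immediate-early and NR4A genes 8 were called lower and 1 higher, beside 4.65% and 9.48% of all genes, with a median log2 difference of -0.46. Egr1, an early zinc finger factor, was read at 50.3, 42.2, 43.9 and 51.3 CPM in WT and at 26.3, 26.2, 18.1 and 26.4 CPM in TPdh-/- (log2 -0.95, SE 0.15, adjusted p = 0.000334). Fosb, an AP-1 subunit, was read at 114, 121, 128 and 150 CPM in WT and at 35.4, 58.5, 24.6 and 71.4 CPM in TPdh-/-. Its groups lay apart, but the TPdh-/- libraries spread widely (log2 -1.43, SE 0.36, adjusted p = 0.0254), and the call was lost without any WT library or without TPdh-/- library 13 (adjusted p 0.0503 to 0.0734). Npas4 (log2 -1.79), Fos (log2 -1.05), Junb (log2 -1.15) and Ier2 (log2 -0.78) were lower. Nr4a3 was the exception, with 7.8, 7.46, 8.48 and 8.11 CPM in WT and 10.4, 10.2, 11.7 and 9.43 CPM in TPdh-/- (log2 0.39, SE 0.075, adjusted p = 0.0114). Of its family, Nr4a1 was lower (log2 -1.07, adjusted p = 0.0161) and Nr4a2 was not called (log2 0.06). Both were picked after their values were seen. With no filter on low counts 5 members were called lower. Myc, Fosl2 and Jun were not called (log2 -0.05 to 0.13), and Atf3 and Fosl1 were not tested.

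The coreceptor and part of the antigen receptor were lower as well. Cd8a was read at 1643, 1800, 1655 and 1554 CPM in WT and at 1107, 1270, 957 and 993 CPM in TPdh-/- (log2 -0.62, SE 0.1, adjusted p = 0.000974). Cd8b1, the other chain of the CD8 coreceptor, was read at 766, 861, 864 and 729 CPM in WT and at 473, 546, 468 and 507 CPM in TPdh-/- (log2 -0.69, SE 0.08, adjusted p = 0.000144). Trac, the constant segment of the alpha chain, was read at 169, 143, 146 and 149 CPM in WT and at 99.6, 98.9, 100 and 103 CPM in TPdh-/- (log2 -0.60, SE 0.056, adjusted p = 7.02e-05). In each of them all TPdh-/- libraries were lower. The inhibitory coreceptors of the T cell receptor Cd5 and Cd6 fell by 0.66 and 0.47, and the zeta chain Cd247 fell by 0.25. The other CD3 chains Cd3d and Cd3g had log2 differences of 0.03 and 0.00 and were not called, and Cd3e, Thy1, Trbc1 and Trbc2 were not called either (log2 -0.19 to -0.07). Cd4 was higher, at 0.174 to 0.359 CPM in WT and 0.458 to 0.845 CPM in TPdh-/-. The summed TPM of 12 CD8 T cell markers was 7464 to 7976 in WT and 6404 to 6562 in TPdh-/- (0.838-fold, exact permutation test, 2-sided p = 0.0286, adjusted p = 0.0413 over 13 marker lists, where 0.0286 is the smallest p that 4 against 4 allows).

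Among the kinases and adaptors just below the receptor 5 of 26 tested genes were lower and 0 higher, with a median log2 difference of -0.08. Lck, the kinase bound to CD8, was read at 776, 746, 781 and 844 CPM in WT and at 668, 666, 691 and 708 CPM in TPdh-/- (log2 -0.20, SE 0.043, adjusted p = 0.0399). No library of one group reached the other. Zap70, Csk and Nfatc1, which act in the same cascade, were lower by 0.30 to 0.33, and the adaptor Sla2 by 0.30 (SE 0.046, adjusted p = 0.00357). The number called was 1 without WT library 9 or without TPdh-/- library 13, 14 or 16, 2 without TPdh-/- library 15, 3 without WT library 11 and 8 with all 16 libraries. In these fits the adjusted p of Lck was up to 0.112, that of Csk up to 0.0979, that of Nfatc1 up to 0.0944 and that of Zap70 up to 0.114, the last also above the threshold without WT library 12 (0.0622). Ptprc, Grap2 and Dgka, the most abundant members, had log2 differences of -0.11 to 0.07.

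Inhibitory receptors went in both directions, with 6 of 16 higher and 4 lower. Havcr2, which encodes TIM-3, was read at 0.396, 0.17, 0.574 and 0.558 CPM in WT and at 3.8, 3.1, 6.71 and 8.22 CPM in TPdh-/- (log2 3.67, SE 0.49, adjusted p = 0.000228). Lag3 was read at 15.1, 13.4, 17.1 and 19.3 CPM in WT and at 9.1, 8.81, 9.75 and 11.4 CPM in TPdh-/- (log2 -0.73, SE 0.14, adjusted p = 0.00192). Both receptors dampen T cells, and they lay apart in opposite directions. Cd200r1, Cd200r4, Cd300a and Cd300c2, receptors better known from myeloid cells, rose by 1.00 to 3.65, while Lair1 and Btla fell by 0.75 and 0.33. Pdcd1, which encodes PD-1, was lower by 0.73 (SE 0.26, adjusted p = 0.0334), a call lost without WT library 9 or 10 or TPdh-/- library 13, 15 or 16 (adjusted p 0.0515 to 0.0959). Ctla4, Pecam1 and Nt5e were not called (log2 -0.06 to 0.14).

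The interferon-gamma response stood out among genes with ample counts. Guanylate-binding proteins (Gbp genes) and immunity-related GTPases attack membranes around intracellular microbes and are induced by interferons. Of 23 tested genes 20 were called higher and 0 lower, with a median log2 difference of 0.90, and all members passed the filter. Gbp2 was read at 124, 121, 133 and 132 CPM in WT and at 324, 265, 326 and 328 CPM in TPdh-/- (log2 1.28, SE 0.081, adjusted p = 3.49e-06). Irgm2, an immunity-related GTPase, was read at 62.8, 58.1, 57.2 and 52.9 CPM in WT and at 125, 106, 120 and 136 CPM in TPdh-/- (log2 1.07, SE 0.091, adjusted p = 1.04e-05). The spread within each group was small beside the distance between them. The transcription factor Irf1 was read at 159, 161, 163 and 166 CPM in WT and at 315, 264, 295 and 336 CPM in TPdh-/- (log2 0.90, SE 0.076, adjusted p = 1.66e-05). Gbp3, Tgtp1 and Tgtp2 rose by 0.92 to 1.14. Igtp was picked after its values were seen, and it rose by 1.01 (SE 0.089). Igtp and Irgm2 share exon positions, so that their reads cannot be fully parted. Irf2, Stat2 and Irf7, of which the last 2 serve mainly type I interferon, were not called (log2 0.07 to 0.16).

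The promoters of 3 of these genes are shown, as the letters that the interferon factors are known to bind can be seen in them. Each sequence is the 250 bases before the transcription start from RefSeq (GRCm38.p6), 5′ to 3′ on the strand of the gene. Capitals mark the letters TTCNNNGAA, which STAT dimers bind, and the interferon-stimulated response element (ISRE) core, paired GAAA letters that IRF factors bind, on either strand.

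Igtp, chr11:58199306-58199555, plus strand: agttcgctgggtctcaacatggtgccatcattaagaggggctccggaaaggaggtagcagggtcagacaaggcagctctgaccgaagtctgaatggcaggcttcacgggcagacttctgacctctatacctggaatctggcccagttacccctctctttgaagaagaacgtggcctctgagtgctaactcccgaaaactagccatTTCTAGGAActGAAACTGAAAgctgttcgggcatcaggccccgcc
Irgm2, chr11:58214727-58214976, plus strand: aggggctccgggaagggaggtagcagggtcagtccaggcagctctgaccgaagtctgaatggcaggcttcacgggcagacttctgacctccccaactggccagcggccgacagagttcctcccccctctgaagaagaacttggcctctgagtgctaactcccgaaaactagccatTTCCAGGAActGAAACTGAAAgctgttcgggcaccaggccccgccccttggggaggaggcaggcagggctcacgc
Gbp3, chr3:142559794-142560043, plus strand: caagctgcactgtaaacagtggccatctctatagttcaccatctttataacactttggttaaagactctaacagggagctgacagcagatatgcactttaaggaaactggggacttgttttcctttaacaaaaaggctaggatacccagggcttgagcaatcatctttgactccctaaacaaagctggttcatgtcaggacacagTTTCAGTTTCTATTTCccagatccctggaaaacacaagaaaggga

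In Igtp and Irgm2, which lie next to each other, both letter patterns stand side by side near the start, and Gbp3 holds 2 overlapping matches of the second pattern on the opposite strand. Over windows of 250 bases before to 50 after the start, the ISRE core was present in 11 of 16 listed interferon-gamma genes with a RefSeq promoter, in 6.66% of 976 genes called higher and in 3.82% of 9902 tested genes. TTCNNNGAA was present in 8 of the 16, in 9.53% of genes called higher and in 8.39% of tested genes. TGTGGT, the letters that RUNX factors bind, was present in 9 of 12 granzyme and granule protein genes, in 7 of 11 NKG2, CD94 and NKR-P1 genes, in 4 of 11 granule transport and serpin genes, in 3 of 8 chemokine genes, in 1 of 7 Ly49 genes and in 2 of 16 interferon-gamma genes, against 20.1% of genes called higher and 15.7% of tested genes. The AP-1 core, TGANTCA, was present in 10.5% of genes called higher, 5.33% of genes called lower and 5.89% of tested genes. Of 12 immediate-early genes none held TGTGGT, TTCNNNGAA, the AP-1 core or TGACGTCA, the letters of CREB, in this window, and 1 (Fosl2) held the ISRE core. A match describes letters and not a bound site.

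Genes of MHC class I and its loading machinery were higher by small amounts, with 11 of 21 tested genes higher and 0 lower and a median log2 difference of 0.25. H2-Q6, a non-classical class I gene, was read at 309, 288, 317 and 278 CPM in WT and at 412, 359, 400 and 367 CPM in TPdh-/- (log2 0.37, SE 0.065, adjusted p = 0.00333). Nlrc5, the transactivator of class I genes, was read at 577, 569, 563 and 615 CPM in WT and at 773, 690, 685 and 710 CPM in TPdh-/- (log2 0.30, SE 0.049, adjusted p = 0.00694). The groups lay apart in both. H2-Q4, H2-Q7, H2-T23 and Tapbp rose by 0.26 to 0.37. The number called was 6 without WT library 9 or 10 or TPdh-/- library 15 or 16. The most abundant members, B2m, H2-K1 and H2-D1, missed the threshold (log2 0.17 to 0.28, adjusted p 0.055 to 0.0946), although all 4 TPdh-/- libraries were above all 4 WT libraries in each. All 3 were called by DESeq2 (adjusted p 0.0108 to 0.0384), and B2m and H2-K1 also without WT library 11 (adjusted p 0.0397 and 0.0401).

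MHC class II genes, which mouse T cells do not normally express, varied between libraries. Cd74, the invariant chain, was read at 7.59, 19.3, 5.93 and 4.64 CPM in WT and at 63.9, 29.7, 30.8 and 17.5 CPM in TPdh-/- (log2 1.93, SE 0.59, adjusted p = 0.0686). Its highest WT library, 10, overlapped with TPdh-/- library 16. H2-Ab1 was called (log2 1.77, SE 0.5, adjusted p = 0.0349) but not without WT library 9, 11 or 12 or TPdh-/- library 14 or 15 (adjusted p 0.0541 to 0.121). H2-DMb1, a chaperone of peptide loading, was the other call (log2 1.82, SE 0.32). Of 10 tested genes 2 were called higher, against 7 without WT library 10 or TPdh-/- library 16, 1 without WT library 9, 11 or 12 or TPdh-/- library 14 or 15, and 8 by DESeq2. Markers of antigen-presenting cells were at low levels in the same libraries. The summed level of 10 macrophage and monocyte markers was 5.09 to 6.46 TPM in WT and 22.2 to 37.4 TPM in TPdh-/- (5.23-fold), of which Lyz2 (24.1 TPM in TPdh-/-) held most and Adgre1, Csf1r and Mrc1, which define these cells, were below 1 TPM. The 7 dendritic cell markers summed to 1.1 to 2.57 TPM in WT and to 9.15 to 18.45 TPM in TPdh-/- (6.80-fold), mostly through Itgax and Batf3, while Flt3, Clec9a and Siglech had means of at most 0.108 TPM. The part of such cells in the class II, chemokine and myeloid receptor results was not tested.

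**Figure D4:**
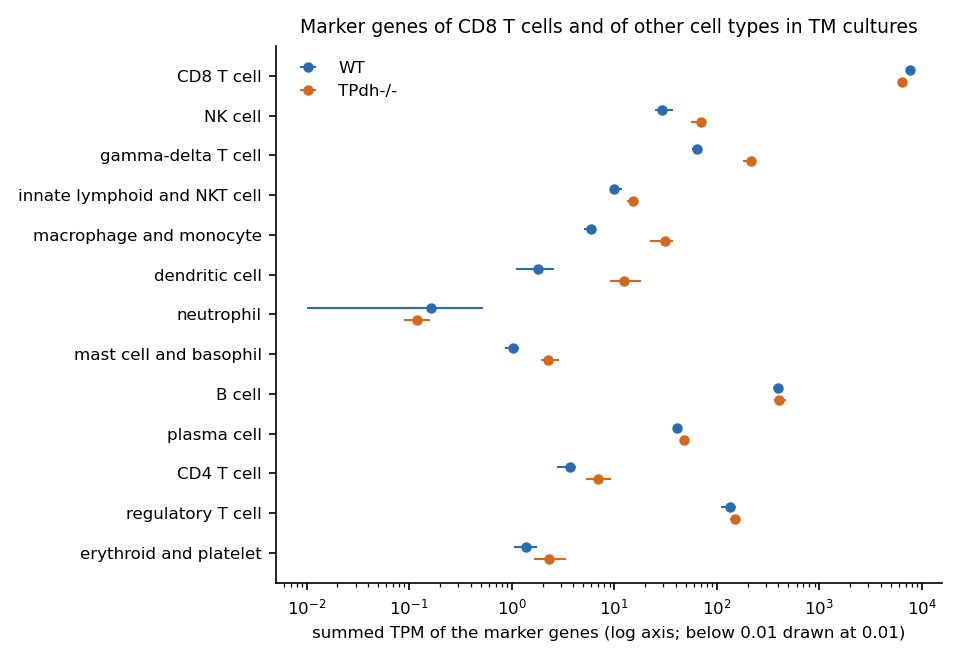
Summed TPM of the marker genes of 13 cell types (horizontal log axis), with points at the mean of 4 libraries and bars from the lowest to the highest library of WT and TPdh-/-. CD8 T cell markers have the highest sums, and the gamma-delta T cell, macrophage and dendritic cell sums are 3.37-fold, 5.23-fold and 6.80-fold higher in TPdh-/- (the gamma-delta sum 2.11-fold in CPM).

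Markers of other cells were not higher across the board. The B cell sum was 397 TPM in WT and 401 TPM in TPdh-/- (1.01-fold, exact permutation test, adjusted p = 0.914), carried by Ighm, and none of its 7 tested genes was called. The neutrophil sum was at most 0.52 TPM in any library, with Elane at 0 in all 8. The mast cell and basophil sum was 1.03 and 2.24 TPM, with Fcer1a at 0 in all 8 libraries. The sums of NK, gamma-delta T, innate lymphoid and NKT (1.51-fold), macrophage, dendritic, mast (2.17-fold), plasma (1.18-fold) and CD4 T cell (1.87-fold) markers each did not overlap between the groups (exact permutation test, adjusted p = 0.0413 for each). In CPM the mast cell and basophil sum was 1.35-fold. Those of regulatory T cells (1.11-fold) and of erythroid cells and platelets (1.69-fold) did overlap (adjusted p = 0.236 and 0.0743).

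Of the 27 tested S phase genes 8 were called lower, and of the 23 mitosis genes 7, by small amounts, and 0 were called higher. Each of these genes had a negative log2 difference, with medians of -0.22 and -0.29, but most did not pass the test. E2f2, a factor that switches on S phase genes, was read at 218, 214, 199 and 223 CPM in WT and at 122, 152, 145 and 136 CPM in TPdh-/- (log2 -0.62, SE 0.078, adjusted p = 0.000189). Mki67, which encodes the Ki-67 antigen of dividing cells, was read at 1332, 1209, 1271 and 1291 CPM in WT and at 835, 986, 1114 and 999 CPM in TPdh-/- (log2 -0.37, SE 0.091, adjusted p = 0.0115). Both were lower in every TPdh-/- library. Ccne1, Cdt1, Mcm10, Pold1 and Pole of S phase fell by 0.31 to 0.48, and the mitotic genes Kif23, Cenpf, Ube2c, Bub1 and Bub1b fell by 0.33 to 0.38. The counts of calls depended on the libraries. Without TPdh-/- library 15 the number of mitosis genes called was 16, without WT library 9 or TPdh-/- library 14 it was 3, without TPdh-/- library 16 it was 4, and it was 16 by DESeq2 and 19 with all 16 libraries. The S phase count was 5 without WT library 9 or 12 or TPdh-/- library 13 or 16. Among the genes named, Pole (adjusted p up to 0.105), Ube2c (up to 0.0718), Bub1 (up to 0.0895) and Bub1b (up to 0.0854) lost their calls without WT library 9. The calls were also lost without WT 12 or TPdh-/- 13, 15 or 16 for Pole, without TPdh-/- 13 or 14 for Ube2c, without WT 11 or TPdh-/- 13, 14 or 16 for Bub1 and without WT 12 or TPdh-/- 14 or 16 for Bub1b. Pcna, Rrm1, Top2a and Kif11 were not called (log2 -0.29 to -0.21).

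Of 13 tested CDK inhibitors and G1 cyclins, with their pocket proteins, 5 were called higher and 1 lower. Cdkn1a, which encodes p21, was read at 2.31, 1.51, 2.19 and 1.88 CPM in WT and at 5.97, 5.48, 8.92 and 9.03 CPM in TPdh-/- (log2 1.89, SE 0.23, adjusted p = 9.72e-05). Cdkn1b, which encodes p27, was read at 160, 175, 161 and 126 CPM in WT and at 229, 208, 212 and 226 CPM in TPdh-/- (log2 0.49, SE 0.11, adjusted p = 0.00346). The groups did not overlap in either gene. Cdkn2a and the pocket protein genes Rbl2 and Rb1 rose by 1.17, 0.42 and 0.23, the last not called without WT library 10 or TPdh-/- library 15 or 16 (adjusted p 0.0526 to 0.0711). Ccnd2, Cdk4 and Cdk6, which drive G1, were not called (log2 -0.12 to 0.10), and Ccnd3 was lower by 0.26, a call lost without WT library 9 or TPdh-/- library 13, 14 or 16 (adjusted p 0.0511 to 0.0638). The inhibitors Cdkn2c and Cdkn2d were not called (log2 -0.18 and -0.27, adjusted p = 0.205 and 0.131), and Cdkn1c and Cdkn2b were not tested. Among 20 tested BCL2 family and caspase genes 4 were higher and 0 lower. The inflammatory caspases Casp1 and Casp4 rose by 0.80 (SE 0.12) and 0.75 (SE 0.062), while Casp8 and the death factor Bcl2l11 were not called. The other calls were Bcl2a1a, with 2 counts over the WT libraries against 61, and Bcl2l2 (log2 0.28, adjusted p = 0.0444), a call lost without any library other than WT 10 and TPdh-/- 15 (adjusted p 0.0612 to 0.118). Bok and Hrk were not tested.

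The metabolic genes around the deleted enzyme moved little. Of 11 tested PDC genes only Pdha1 and Pdp1 were called. Pdp1, the phosphatase that switches E1 back on, was read at 20.5, 20.5, 19.4 and 18.3 CPM in WT and at 24.4, 25.4, 26.6 and 25.2 CPM in TPdh-/- (log2 0.37, SE 0.046, adjusted p = 0.00216), with no overlap. Pdk1, a kinase that switches E1 off, Dld, the E3 subunit, and Pdpr had log2 differences of -0.14 to -0.06, and Pdk4 did not pass the filter. Of 20 genes of the tricarboxylic acid cycle 0 were called by edgeR and 0 by DESeq2 or limma, and 0 higher and 2 lower had an unadjusted p below 0.05. Their log2 differences were -0.18 to 0.10, with Cs, Sdha and Mdh1 at -0.14, -0.06 and 0.03. Of 16 glycolysis genes 1 was called, Eno2, which was below 1.2 CPM in every library, and Eno1, Gapdh and Gpi1 had log2 differences of -0.27 to -0.12. The groups of Eno1, Gapdh, Pkm and Ldha overlapped.

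A few genes at the branch points of pyruvate and acetyl-CoA differed. Ldhb, the lactate dehydrogenase chain of oxidative tissues, was read at 1.62, 2.38, 1.93 and 1.95 CPM in WT and at 5.98, 5.51, 6.11 and 6.3 CPM in TPdh-/- (log2 1.61, SE 0.12, adjusted p = 1.61e-05). Ldha, the dominant chain, was read at 568, 499, 608 and 665 CPM in WT and at 437, 523, 607 and 584 CPM in TPdh-/- (log2 -0.12, SE 0.14, adjusted p = 0.513). The rise in Ldhb was thus of a chain at a small share of the transcripts, while Ldha overlapped. Pck2, the mitochondrial enzyme that makes phosphoenolpyruvate from oxaloacetate, rose by 0.67 (SE 0.074, adjusted p = 0.000507). Acss2, which makes acetyl-CoA from acetate, was read at 51.3, 54.4, 48.5 and 47.5 CPM in WT and at 62.1, 60.2, 60.1 and 66.9 CPM in TPdh-/- (log2 0.31, SE 0.057, adjusted p = 0.0059). Crat, which exchanges acetyl groups with carnitine, was read at 1.98, 1.85, 2.02 and 2.59 CPM in WT and at 3.59, 3.61, 4.14 and 4.15 CPM in TPdh-/- (log2 0.88, SE 0.12, adjusted p = 0.00121). Every TPdh-/- library was higher in both. Acly, which makes acetyl-CoA from citrate, and Fasn, which builds fatty acids from it, had log2 differences of -0.20 and -0.55 and were not called, and Fasn was called without WT library 10, 11 or 12 (log2 -0.65, -0.644 and -0.328). Me2, the mitochondrial malic enzyme, was lower by 0.26, a call lost without WT library 9 or 11 or TPdh-/- library 13 or 14 (adjusted p 0.0577 to 0.0813). The lactate transporter Slc16a1 and Pkm were not called (log2 -0.08 and -0.15), and Slc16a6 was higher by 0.23, a call lost without WT library 9, 10 or 11 or TPdh-/- library 14, 15 or 16 (adjusted p 0.0584 to 0.0962). Me1, Slc16a7, Acot12 and Slc13a5 were not tested.

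Enzymes that place or remove histone acetyl groups were called at rates near those of all genes, with 2 of 26 tested genes higher and 1 lower. Hdac7, a class IIa deacetylase abundant in T cells, was read at 229, 233, 231 and 291 CPM in WT and at 180, 166, 163 and 164 CPM in TPdh-/- (log2 -0.55, SE 0.09, adjusted p = 0.000936). The TPdh-/- libraries were all lower, and WT library 12 was the highest. Hdac11 rose by 1.87 from below 0.13 CPM, and Kat2b rose by 0.20, a call lost without WT library 9 or 11 or TPdh-/- library 13, 14 or 16 (adjusted p 0.0586 to 0.107). Ep300, Kat6a and Hdac1 were not called (log2 -0.20 to 0.02).

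Genes of extracellular ATP, NAD and lipid signals were higher for 8 of 17 tested and lower for none. P2rx7, the ATP-gated channel, was read at 1.7, 0.793, 1.81 and 2.05 CPM in WT and at 9.08, 7.05, 12 and 8.31 CPM in TPdh-/- (log2 2.51, SE 0.34, adjusted p = 0.000111). Art2b, the ecto-enzyme that opens P2X7 by ADP-ribosylation from NAD, was read at 62.3, 53.7, 58.3 and 55.6 CPM in WT and at 101, 84, 76.8 and 86.1 CPM in TPdh-/- (log2 0.60, SE 0.094, adjusted p = 0.000584). The groups were apart in both. P2rx4, Plscr1, the prostaglandin receptor Ptger2 and Alox5ap rose by 0.49 to 1.38, and Ptger4, Lta4h and Gucy1a1 were not called. Adora2b, Alox5, Ltc4s and Ptgs2 were not tested.

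**Figure D5:**
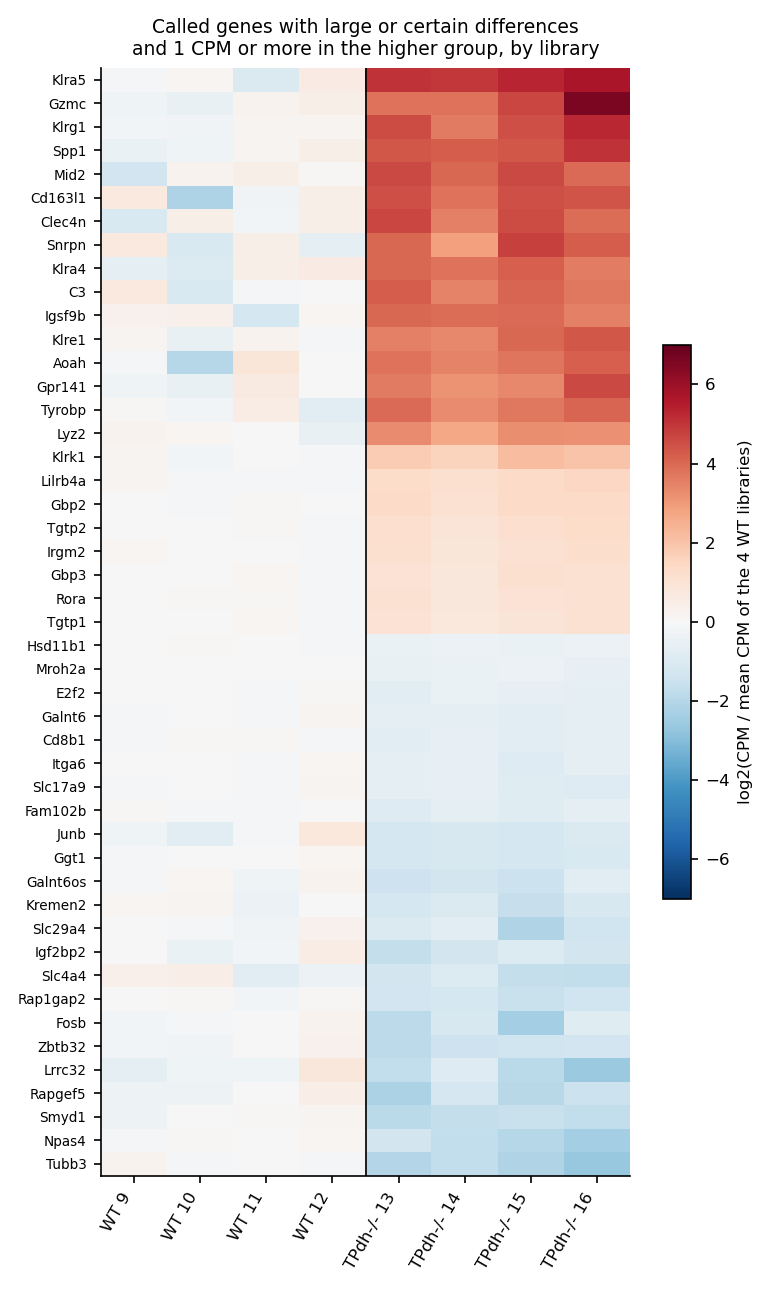
Log2 of the CPM in each library over the mean CPM of the 4 WT libraries, for 47 called genes, those with the largest differences among genes at 1 CPM or more in the higher group or the most certain ones at 20 CPM or more, with predicted genes, Rik genes and gene segments left out, WT on the left of the line and TPdh-/- on the right. The 24 genes higher in TPdh-/- have their largest mean log2 differences in Klra5 (5.21) and Gzmc (5.19), and the 23 genes lower stay smaller in size, with Tubb3 at -2.09 the furthest on average.

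The genes lower in TPdh-/- named next had a mean of at least 1 CPM in WT and no overlap between the groups, or were among the most certain calls above 20 CPM. Predicted genes, Rik genes and gene segments were left out, and apart from Tubb3 the genes called with a log2 difference below -2 were predicted or below 1 CPM in WT. Tubb3, a tubulin best known from neurons, was read at 2.23, 1.72, 1.9 and 1.78 CPM in WT and at 0.458, 0.58, 0.443 and 0.308 CPM in TPdh-/- (log2 -2.09, SE 0.19, adjusted p = 5.68e-05). Rap1gap2, which inactivates the adhesion GTPase Rap1, was read at 56.1, 59.1, 49.3 and 58.7 CPM in WT and at 21.9, 23.4, 18.9 and 21.4 CPM in TPdh-/- (log2 -1.38, SE 0.089, adjusted p = 3.49e-06). Its WT values were 2.60-fold those in TPdh-/-, with little spread. Ggt1, which breaks down extracellular glutathione, was lower by 1.16 (SE 0.071, adjusted p = 6.3e-06), and Smyd1, a SET and MYND domain protein, by 1.70 (SE 0.13, adjusted p = 2.42e-05). Rapgef5, Slc4a4, Igf2bp2, Slc29a4, Kremen2 and Galnt6os, all below 3.2 CPM, were lower by 1.21 to 1.66. Among genes above 20 CPM the most certain decreases also took in Fam102b, Galnt6, Slc17a9, Hsd11b1 and Mroh2a, by 0.44 to 0.75. Of cytoskeletal and motility genes 5 of 21 were lower and 3 higher. Lgals3 and Emp1 fell by 0.71 and 0.88, and Anxa5 by 0.24. Anxa1 rose by 2.81 (SE 0.53, adjusted p = 0.0126), with 4.64, 3.17, 9.01 and 5.42 CPM in WT and 19.2, 24.2, 39.1 and 74.1 CPM in TPdh-/-, and it missed the threshold without WT library 9 (adjusted p = 0.0517). By the same limit of 1 CPM, now in TPdh-/-, large increases outside the 32 gene lists were those of Mid2 (log2 4.34), Cd163l1 (log2 4.27), which is also a gamma-delta T cell marker, Clec4n (log2 4.25), Snrpn (log2 4.08), C3 (log2 3.87), Igsf9b (log2 3.86), Aoah (log2 3.79) and Gpr141 (log2 3.78), each below 0.5 CPM in all WT libraries. Ly6c2, an antigen of effector and some memory cells, was read at 232, 144, 277 and 185 CPM in WT and at 350, 408, 714 and 787 CPM in TPdh-/- (log2 1.43, SE 0.36, adjusted p = 0.0243), and its call was lost without WT library 9 or 12 or TPdh-/- library 15 (adjusted p 0.0607 to 0.0856).

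The neighbours of Pdha1 were described apart, because a targeted allele can carry flanking DNA of the strain of its stem cells. Within 10 Mb of Pdha1 on X 72 genes were tested, of which 6 were higher and 2 lower (11.1% called). Between 10 and 20 Mb 13 genes were tested, of which 3 were higher and 0 lower (23.1%). Mid2 (log2 4.34), at -19.4 Mb from Pdha1, was among them. Beyond 20 Mb on the same chromosome 47 were higher and 10 lower of 359 (15.9%), and over all genes 14.1% were called. The part of flanking DNA in these calls was not tested. The called neighbours within 10 Mb, beside Pdha1 and Map3k15, were Tlr7, a receptor for single-stranded RNA (log2 1.40), Iqsec2 (log2 1.95), Car5b (log2 1.76), Sat1 (log2 0.37), A230072E10Rik (log2 0.81), Prdx4 (log2 -0.66) and Smc1a (log2 -0.25). A230072E10Rik lost the call without WT library 9 or 11 or TPdh-/- library 13 or 14 (adjusted p 0.0501 to 0.0601), and Smc1a without WT library 9 or TPdh-/- library 13, 15 or 16 (adjusted p 0.0519 to 0.0699). Of the autosomes, chromosome 6 had the highest share called (19.5%).

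The mix of transcripts within genes was examined through the length column of the deposited tables, a readout that does not use the level of the gene. Over 9341 genes with 2 or more annotated transcripts, limma called 0 for a difference in mean length, with a lowest adjusted p of 0.109, and 609 (6.52%) had an unadjusted p below 0.05, 367 longer and 242 shorter in TPdh-/-. The count was 0 with either alternative setting and without each library in turn. Ptprc, the phosphatase CD45 whose alternative exons mark activation, averaged 3769 bases in WT and 3991 bases in TPdh-/- (log2 0.0829, SE 0.0261, adjusted p = 0.648). Il7r averaged 2924 and 2822 bases (log2 -0.0513, SE 0.0095, adjusted p = 0.542). Neither gene passed the test.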

How the data were processed

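Per the labels, poly(A) RNA libraries were made with a TruSeq version 2 kit, sequenced as read pairs on a NovaSeq instrument and aligned to mm10, for which STAR 2.7.6a and RSEM 1.3.3 are named. The annotation release used by the authors is not given in the sources used here. The deposited tables hold expected counts, which RSEM estimates and which need not be whole, and TPM, which the authors scaled for gene length and library total. The deposited lengths in bases are other values, the abundance-weighted mean transcript lengths. FPKM was not used.

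Expected counts were rounded. Genes were kept by filterByExpr (minimum count 10, total 15), scaled by TMM and tested with edgeR 4.0.16 (robust quasi-likelihood, Benjamini-Hochberg below 0.05). Length was tested with limma 3.58.1 on genes of at least 1 TPM. SEs come from log2 CPM (prior count 2). Of 200 genes changed in simulated data of 13772 genes, 87 of 100 2-fold and 97 of 100 4-fold changes were recovered, with 12 false calls. GENCODE M21 named 55141 of 55401 genes. Members, lists and alternatives were chosen with earlier results of these data known. Genes are named by a rule: per direction up to 15 by size without overlap and up to 10 by adjusted p at 20 CPM or more, up to 6 called and 3 uncalled members per list with any called against the majority, called neighbours within 10 Mb of Pdha1, markers and 22 fixed genes. Alternatives were RLE scaling, DESeq2 1.42.0, limma-trend, other filters, all 16 libraries and leaving out each library. Of 641 listed or named genes, 201 overlap exons of another gene and are uncertain to that extent, since the kit does not keep the strand. Depth limits only low genes, and counting error is not the spread between cultures.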

Additional observations from a re-analysis of the deposited data

Results flagged for a closer look

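In groups of 4 libraries, a value was picked out when its gap to the nearest other library was above Dixon's critical value as a share of the range, which chance does in about 1 of 20 groups. Among 616 groups for 308 genes, 34 values were picked out, a number near that rate, and 2 more came from marker sums and depth. WT library 12, the library with longer transcripts, held 12 of the 20 values in WT. It was the highest WT library for Lyst (632 CPM, others at most 549), Unc13d (118, at most 89.4), Csf1 (0.271, at most 0.0696), Tgfb1 (41.9, at most 25.6), Il6st (192, at most 159), Ccnd2 (714, at most 667), Gpi1 (606, at most 489), Hdac7 (291, at most 233) and Slc17a9 (82.9, at most 70.2). It was the lowest for Clec2d (37.8, others at least 70.1), Cd48 (287, at least 358) and H2-Q7 (778, at least 799), and its innate lymphoid and NKT marker sum was 11.95 TPM against at most 9.54 TPM.

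Of the other WT libraries, library 9 was apart in Lilrb4a (26.3 CPM), Ctla4 (108) and Cdt1 (17.1), library 10 in Cxcr3 (109.6) and Hdac1 (182), and library 11 in Klri2 (1.04), Batf3 (0.383) and Sla2 (122). In TPdh-/-, library 13 was apart in Stat2 (67.2), Adgre1 (0.827), Mdh1 (222), Hdac7 (180.2) and Hdac1 (177). Library 14 was apart in Gata3 (10.8), Gbp2 (265) and H2-T23 (149), and library 15 in Egr1 (18.1) and Kat6a (205.0) and in its total of 65142856 counts, against at most 56230685. Library 16 was apart in Gzmc (20.7), Spp1 (48.8), Cd81 (3.24) and Pdcd1 (2.26).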

How the results depend on the processing

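The number of genes called was 2025, and it was 2016 with RLE scaling, 2660 with DESeq2, 2028 with limma-trend, 2161 with no filter on low counts, 1633 with a filter of 1 CPM in 4 libraries and 2795 with all 16 libraries. Without each library in turn it ranged from 1442 (without WT library 9) to 2147 (without WT library 12). The 667 genes called lower became 1060 with DESeq2, 1110 with all 16 libraries and 384 to 716 without each library in turn (384, 408 and 435 without WT library 9, TPdh-/- library 16 and TPdh-/- library 14). The filter of 1 CPM left 330 calls over 2-fold, 303 higher and 27 lower, since it removes genes near 0 in WT. The regulatory T cell marker sum was 1.26-fold in CPM (exact permutation test, adjusted p = 0.0371), against 1.114-fold in TPM (exact permutation test, adjusted p = 0.236). For the other shifts the cause was not tested. Of 293 listed or named genes that were called, 226 were called under every alternative run, 67 lost the call under at least 1, and 0 changed direction. No paired analysis was possible because the groups share no replicate numbers. Counting error weighs most on genes with few counts, and 4 libraries a group left many calls near the threshold.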

Other observations

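Trat1, which encodes an adaptor that associates with the T cell receptor, belonged to none of the gene lists and was picked after its values were seen. Its mean was 2.77 CPM in WT and 16 CPM in TPdh-/- (log2 2.53, SE 0.12, edgeR quasi-likelihood adjusted p = 1.22e-06), and all 4 TPdh-/- libraries lay above all 4 WT libraries.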
